A study of Mus musculus with 58 samples.

Results

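The chromatin peaks of the paralogous nuclear proteins SAFB and SAFB2 were compared in mouse embryonic stem cells. The members are all 17302 peaks of the SAFB and SAFB2 lists, 10632 of them of SAFB and the rest of SAFB2, out of 156215 peaks in the 9 lists of the series used here. They were taken by sample title, and no peak was picked by its value. Each protein has 1 chromatin immunoprecipitation sequencing (ChIP-seq) library. A difference between the lists therefore has no replicate check, and the protein and its library cannot be told apart. No test was made and no p-value is given.

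Both lines overexpress a tagged protein, FB(OE)-SAFB or FB(OE)-SAFB2, in J1 embryonic stem cells that carry the biotin ligase BirA. The labels give the strain as 129/Ola and no treatment. The cells were fixed with the protein crosslinker DSP at 2 mM for 30 minutes and then with 1% formaldehyde for 10 minutes. Chromatin cut by DNase I and sonication to 200 to 500 bp was pulled down with 5 µg of FLAG antibody and then on streptavidin beads. The labels do not say whether a line is 1 clone, which promoter drives the protein or how its level compares with the endogenous protein. The other 7 lists serve as comparisons where named. Of these, hnRNPU was made by the same steps in the same J1 background. CIRH1A, UTP3 and UTP6 (3% formaldehyde) and overexpressed PSPC1 (1% formaldehyde) had that background but no DSP, and 2 libraries are of PSPC1 tagged at its own gene in CJ9 cells (3% formaldehyde). The input library that the labels list for SAFB was not analysed here.

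SAFB and SAFB2 are scaffold attachment factor B proteins, close relatives that arose by gene duplication. Both carry a SAP domain, named after proteins that bind scaffold or matrix attachment regions of DNA, and an RNA recognition motif. They are part of the nuclear matrix, take part in transcriptional repression and RNA processing, and can bind each other. DSP links proteins to proteins, so a pull-down after DSP can hold DNA that the tagged protein reaches through a partner. hnRNPU, also called SAF-A, is another scaffold attachment factor but is not of the same family.

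A peak counted as shared where it overlapped a peak of the other list by at least 1 bp. A SAFB-only or SAFB2-only peak is one with no such overlap, whatever the other 7 lists hold there. Beside a share stands its Wilson 95% interval, which holds counting error and nothing else. The score is the authors' value for each peak, its unit is unknown, and it was used only to rank peaks within a list. The lowest score was 50.01 in both lists, and 3 peaks of each list stood at 3100. Read depth cannot be read from a peak list and is unknown.

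In the full lists most SAFB2 peaks were shared with SAFB, and most SAFB peaks were not shared with SAFB2. At the same number of peaks the shares were 45.0% of SAFB2 and 44.2% of SAFB peaks. With a reciprocal overlap of 50% in the full lists, 40.0% of SAFB2 peaks were shared. Of the SAFB peaks 3671 (34.5%, 33.6 to 35.4%) met a SAFB2 peak, and of the SAFB2 peaks 3712 (55.7%, 54.5 to 56.8%) met a SAFB peak. Merging overlapping peaks of both lists gave 13563 regions, of which 3644 (26.9%) held both proteins. In 3555 of these regions a single SAFB peak met a single SAFB2 peak. SAFB peaks were wider, with a median of 1699 bp against 1275 bp, and covered 22.0 Mb against 10.5 Mb. SAFB2 was therefore the shorter and narrower list.

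Within the 3739 overlapping pairs the SAFB2 peak tended to lie inside the SAFB peak. SAFB was wider in 82.1% of the pairs, with a median ratio of widths of 1.41. The SAFB2 peak lay wholly inside the SAFB peak in 53.4% of the pairs, and the reverse held in 6.15%. The midpoints were a median of 254 bp apart, and in 75% of pairs no more than 586.5 bp. Widths of paired peaks ranked alike with a Spearman rho of 0.644, and scores with a rho of 0.361, over pairs that share their position and mappability. Of the 1751 pairs whose SAFB peak was in the highest quartile of SAFB scores, 874 (49.9%) also had a SAFB2 peak in the highest quartile of SAFB2 scores.

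The 5 shared regions with the best mean score rank were chr9:35112568-35113596, chrUn_random:5248725-5249836, chrUn_random:5495055-5497368, chr2:98505909-98507927 and chr15:74915454-74917978 (mm9). The first 3 stood at a score of 3100 in both lists. The region on chromosome 2 scored 2941.42 for SAFB and 3092.87 for SAFB2, and that on chromosome 15 scored 2564.11 and 2727.15. All 5 regions also overlapped a peak of hnRNPU, CIRH1A, UTP3, UTP6 and overexpressed PSPC1, so the highest scores of both lists fell at places found with other tagged proteins too. PSPC1 is a paraspeckle protein, and the CIRH1A, UTP3 and UTP6 proteins act in making ribosomes. No untagged control library was used here, and the part of signal unrelated to the tagged protein was not tested.

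High-scoring peaks were shared more often than low-scoring ones in both lists. From the lowest to the highest score quartile the shared share was 16.5, 22.6, 35.2 and 63.8% of SAFB peaks. For SAFB2 it was 36.4, 46.6, 58.8 and 80.9%. In the highest score decile it reached 77.8% (75.2 to 80.2%) for SAFB and 90.4% (87.9 to 92.4%) for SAFB2. In the lowest decile it was 13.2% (11.3 to 15.4%) and 32.8% (29.3 to 36.4%). From decile to decile the share went up at every step in both lists. The median score percentile, where 100 is the top of a list, was 72.3 for shared and 40.1 for SAFB-only peaks. It was 62.7 for shared and 36.2 for SAFB2-only peaks.

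**Figure D1:**
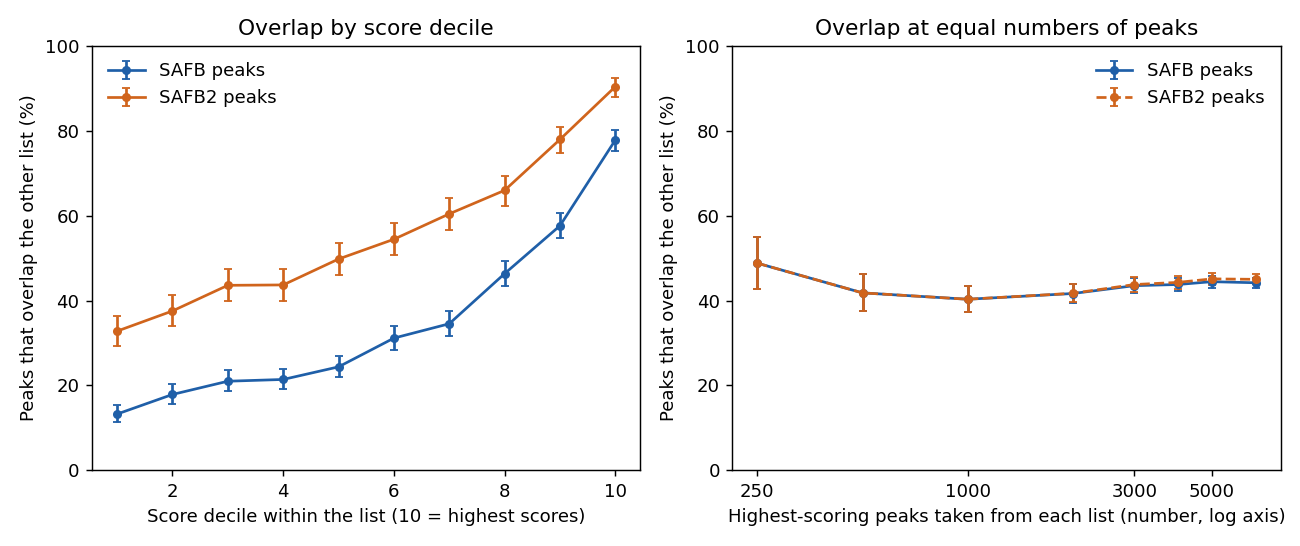
Share of SAFB (blue) and SAFB2 (orange) peaks that overlap the other list, in percent with Wilson 95% intervals. Left, by score decile within each list against all peaks of the other list, from 13.2 to 77.8% for SAFB and from 32.8 to 90.4% for SAFB2; right, for equal numbers of highest-scoring peaks on a log axis, where the share lies between 40.3 and 48.8% throughout.

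The strongest peaks of the 2 lists were not the same set when equal numbers were compared. Of the 250 highest-scoring peaks of each list, 122 (48.8%, 42.7 to 55.0%) overlapped. The share was 41.8% at 500 peaks, 40.3% at 1000 and 41.7% at 2000. With all SAFB2 peaks and as many of the highest SAFB peaks it was 44.2% (43.0 to 45.4%) for SAFB and 45.0% (43.8 to 46.2%) for SAFB2. The share thus changed little with the number taken, while nearly all of the strongest peaks of a list had a partner somewhere in the full other list. Of the 250 highest SAFB peaks 233 were shared with the full SAFB2 list, and of the 250 highest SAFB2 peaks 241 with the full SAFB list. Limiting SAFB to the length of the SAFB2 list set its lowest score at 66.14 and took the partner away from 711 SAFB2 peaks (19.2% of those shared).

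The very highest peaks of both lists were shared, and the first unshared ones came at ranks 56 and 33, still within the highest 1% of their lists. The highest SAFB-only peak, chr15:33151216-33153456, scored 369.95, which is rank 56 of its list, and lay 47.3 kb from the nearest SAFB2 peak. It also overlapped a hnRNPU peak. The second, chrX:29651269-29653747, scored 368.29, overlapped none of the other 7 lists and was 378.1 kb from the nearest SAFB2 peak. The highest SAFB2-only peak, chr4:146958653-146961682, scored 510.68, which is rank 33 of its list, and met 5 of the other 7 lists. The next, chr17:56705043-56706850, scored 470.09, lay 7.31 kb from the nearest SAFB peak and met the overexpressed PSPC1 list alone. The third SAFB2-only peak, chr5:23201954-23205122, was at 221.64, so the first 2 scored well above the next. No peak was assigned to a gene, so whether a peak lies in the gene of a tagged protein was not tested.

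Shared peaks were wider than unshared ones in both lists. Shared SAFB peaks had a median width of 2080 bp against 1531 bp for SAFB-only peaks. Shared SAFB2 peaks had 1354 bp against 1163 bp for SAFB2-only peaks. When overlap was counted between 500 bp windows at the midpoints, the difference in median width was 45 bp (95% interval -13.0 to 93.0) for SAFB in place of 549 bp. For SAFB2 it was 8 bp (-28.6 to 48.5) in place of 191 bp. Both intervals then held 0, and the cause was not tested. Width and score also went together within a list, with a rho of 0.292 for SAFB and 0.273 for SAFB2. Among SAFB2 peaks of the highest score quartile, shared and SAFB2-only peaks had median widths of 1589.5 and 1589 bp.

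Over all scores the shared share was higher in wider peaks, except in the widest SAFB2 peaks. For SAFB it went from 18.3% in the narrowest width decile to 53.1% in the widest and was higher at every step. For SAFB2 it went from 40.5% in the narrowest width decile to 67.4% in the ninth and was 55.0% (51.2 to 58.8%) in the widest, which held peaks from 2722 to 8700 bp. In the highest score quartile of SAFB2 the share was 80.0, 80.2, 81.6 and 81.0% over the 4 width quartiles of the list. In the highest score quartile of SAFB it was 64.2, 56.1, 63.5 and 68.0%. In the lowest score quartile it was 10.9, 17.2, 18.8 and 26.8% for SAFB and 30.4, 39.0, 42.5 and 39.0% for SAFB2. In both lists the narrowest width quartile of weak peaks had the lowest share, and strong peaks varied less with width in relation to their level.

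Unshared peaks of a list lay about as far from the other list as that list's own peaks lay from each other. SAFB-only peaks were a median of 111.8 kb from the nearest SAFB2 peak, and SAFB2 peaks were a median of 109.5 kb from each other. SAFB2-only peaks were a median of 61.7 kb from the nearest SAFB peak, and SAFB peaks were 64.4 kb from each other. At the same number of peaks the medians were 107.6 and 111.4 kb, with own spacings of 109.5 kb for SAFB2 and 112.3 kb for SAFB. Within 10 kb of the other list lay 11.5% of SAFB-only peaks, where 13.2% of SAFB2 peaks had a neighbour of their own list that close. For SAFB2-only peaks the share was 19.1%, where 17.3% of SAFB peaks had such a neighbour. Few unshared peaks lay within 1 kb of the other list, 4.21% of SAFB-only and 6.86% of SAFB2-only peaks. These shares were near those of the other list's own peaks with a neighbour that close, 4.29% for SAFB2 and 7.39% for SAFB.

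Chromosome X stood out for shared peaks. The labels do not give the sex of the cells, and both lists held peaks on chromosome Y, 8 of SAFB and 6 of SAFB2. Of the SAFB2 peaks on X, 317 of 432 (73.4%, 69.0 to 77.3%) were shared, against 54.1% (52.9 to 55.3%) on chromosomes 1 to 19. No single one of these 19 chromosomes reached the X value, and they ran from 43.6% on chromosome 11 to 63.4% on chromosome 3. For SAFB 306 of 726 X peaks (42.1%, 38.6 to 45.8%) were shared, against 33.8% (32.8 to 34.7%) on chromosomes 1 to 19. There the range was 24.4% on chromosome 11 to 41.3% on chromosome 4, so X was first by a small margin. At the same number of peaks X was not first for SAFB, with 49.5% against 52.1% on chromosome 4, and was first for SAFB2, with 61.6% against at most 52.5%.

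The X difference of SAFB2 was found at every score level, and that of SAFB was not. From the lowest to the highest score quartile, 54.1, 64.0, 74.1 and 91.4% of SAFB2 peaks on X were shared. On chromosomes 1 to 19 the values were 35.3, 45.3, 57.5 and 79.6%. For SAFB the values on X were 18.7, 32.1, 38.0 and 62.0%, against 16.2, 22.3, 34.8 and 63.8%. The SAFB intervals of X and chromosomes 1 to 19 were apart only in the second quartile. X peaks of SAFB2 were narrow, with a median of 1108.5 bp, below each of the 19 other chromosomes, and the part of width in the X difference was not tested. Counted the other way, X held 8.54% of shared and 3.89% of SAFB2-only peaks, and 8.34% of shared and 6.03% of SAFB-only peaks. With a reciprocal overlap of 50% these differences, 4.65 and 2.30 percentage points, came down to 1.39 (0.178 to 2.64) and 0.641 (-0.447 to 1.82). The SAFB interval then held 0, as it did when only the upper 50% of scores in each list were kept, at 1.04 (-0.518 to 2.70).

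X was also high in score, and its density was above most but not all of the 19 other chromosomes when all peaks were counted. SAFB had 4.36 peaks per Mb on X, and 3 of 19 chromosomes had more. SAFB2 had 2.59 per Mb, and 5 of 19 had more. hnRNPU, made by the same steps, had 1.76 per Mb on X, below all 19, which ran from 3.19 to 5.32. The median score percentile of X peaks was 63.8 for SAFB and 57.7 for SAFB2, above each of the 19, whose highest were 53.7 and 55.5. With SAFB limited to as many of its highest scores as SAFB2 has peaks, X had 3.08 SAFB peaks per Mb, above all 19, whose highest was 2.76 on chromosome 16. X held 12.0% of the 250 highest SAFB peaks and 8.80% of the 250 highest SAFB2 peaks, against 6.83 and 6.48% of all peaks. The hnRNPU peaks on X met SAFB2 at 18.1% (14.1 to 22.9%) and those on chromosomes 1 to 19 at 11.4% (10.8 to 12.1%). They met SAFB at 22.5% (18.1 to 27.6%) on X and 17.2% (16.5 to 17.9%) on chromosomes 1 to 19.

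**Figure D2:**
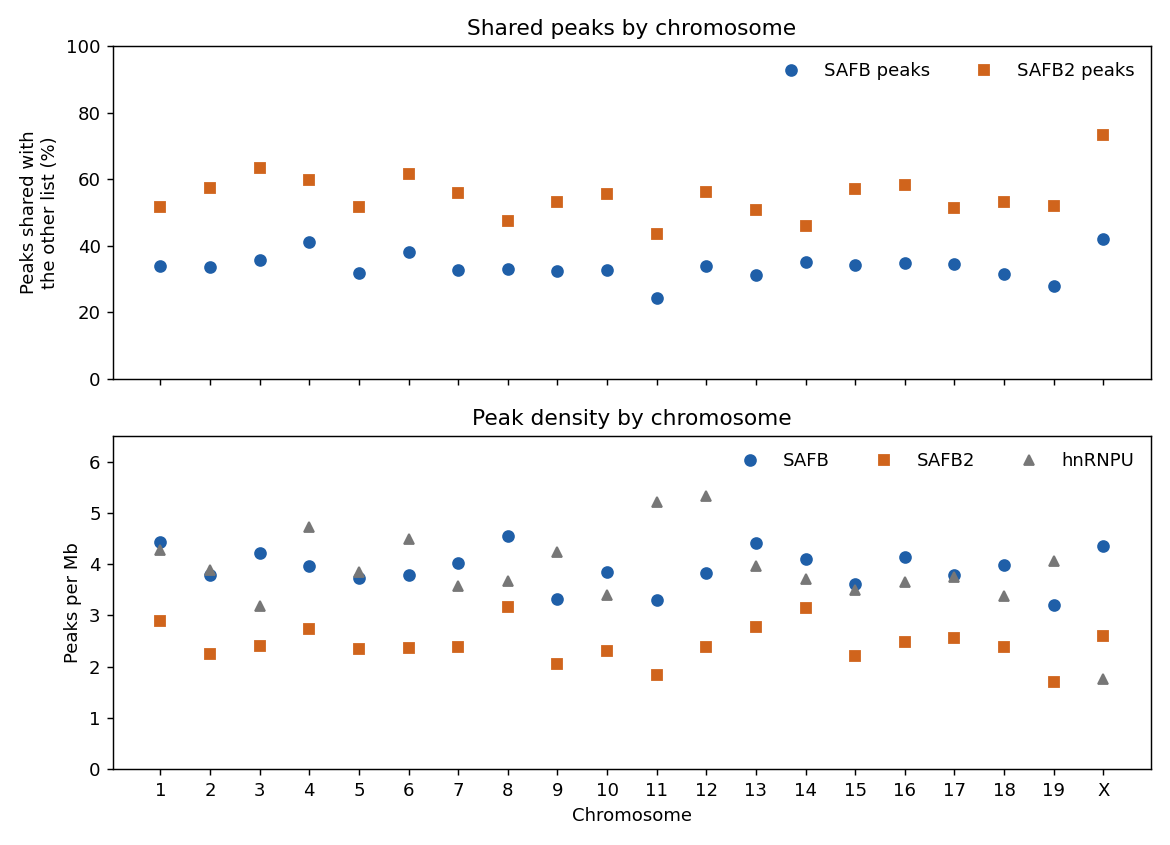
Values for chromosomes 1 to 19 and X. Top, share of SAFB (blue circles) and SAFB2 (orange squares) peaks shared with the other list in percent, highest on X at 42.1 and 73.4%; bottom, peaks per Mb for SAFB, SAFB2 and hnRNPU (grey triangles), with hnRNPU at its lowest value of 1.76 on X.

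Chromosome 11 stood at the other end when all peaks were counted. It had the lowest shared share in both lists, 24.4% of SAFB and 43.6% of SAFB2 peaks, where the medians over the 19 chromosomes were 33.6 and 53.2%. It also had the lowest median score percentile in both, 41.3 and 43.4. At the same number of peaks it had the lowest shared share in neither list, with 37.7% of SAFB and 37.3% of SAFB2 peaks. The lowest of the 19 were then 35.5% on chromosome 19 for SAFB and 35.6% on chromosome 8 for SAFB2. Chromosome 14 had the most SAFB2 peaks for its SAFB peaks, 77.0 per 100, and chromosome 19 the fewest, 52.8. Both lists also held peaks on sequence not placed in a chromosome. On chrUn_random 22 of 32 SAFB peaks (68.8%) and 23 of 33 SAFB2 peaks (69.7%) were shared, and on chrY_random 45 of 114 (39.5%) and 46 of 63 (73.0%).

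Along the chromosomes most peaks of both lists stood alone. With neighbours up to 50 kb apart joined, 56.6% of SAFB and 68.1% of SAFB2 peaks had no neighbour. Clusters of at least 3 peaks held 15.9% of SAFB and 9.49% of SAFB2 peaks. At the same number of peaks SAFB had 8.01%, below SAFB2, so the order of the lists turned. Shared and unshared peaks were clustered to about the same degree: 16.8% of shared and 15.5% of SAFB-only peaks, and 9.62% of shared and 9.33% of SAFB2-only peaks, were in such clusters. The median distance to the nearest peak of the same list was 62.7 kb for shared and 64.9 kb for SAFB-only peaks, and 108.6 and 111.1 kb for SAFB2.

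**Figure D3:**
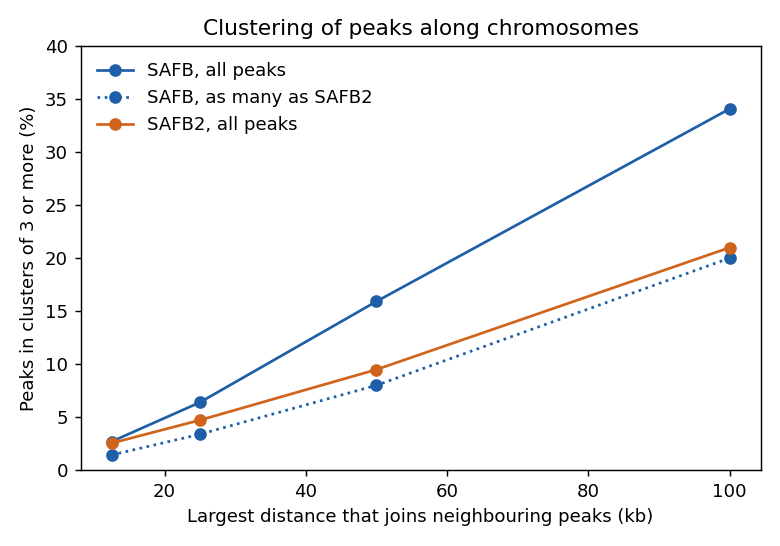
Share of peaks in clusters of at least 3, in percent, against the largest distance in kb that joins neighbours (4 distances up to 100 kb). Solid lines are all peaks of SAFB (blue) and SAFB2 (orange), and the dotted line is SAFB limited to the number of SAFB2 peaks, which lies below SAFB2 at each of the 4 distances.

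The largest clusters of both lists lay in a single stretch of chromosome 13. The largest SAFB2 cluster, chr13:65459340-66230074, held 45 peaks over 770.7 kb, of which 22 were shared. Its peaks had a median score percentile of 64.6. The stretch also held 34 SAFB peaks, 55 UTP6 peaks, 45 UTP3 peaks and 28 hnRNPU peaks. The 4 largest SAFB clusters, with 21, 16, 15 and 13 peaks, were chr13:65861189-66315805, chr13:66831671-67035169, chr13:65520413-65723772 and chr13:66582601-66756046. The second SAFB2 cluster, chr13:66645668-66960599, had 15 peaks, of which 13 were shared. The third, chr5:14914412-15053469, had 11 SAFB2 peaks of which 2 were shared, with 4 SAFB, 25 UTP3 and 20 UTP6 peaks in the same stretch. Dense SAFB2 clusters thus ranged from mostly shared to mostly SAFB2-only. All 5 of the largest also held peaks of hnRNPU, CIRH1A, UTP3, UTP6 and overexpressed PSPC1. UTP6 peaks were common everywhere, in 2626 of the 2658 bins of 1 Mb that held a peak of any list.

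Over bins of 1 Mb, the counts of SAFB and SAFB2 ranked more alike than those of either with hnRNPU or UTP6. Of 2658 bins that held a peak of any list, 2530 held SAFB and 2312 SAFB2, so each protein alone was in most bins. By count, 2260 held both proteins, 270 SAFB alone, 52 SAFB2 alone and 76 neither. Of the bins with both, 428 held no shared peak. The counts of SAFB and SAFB2 per bin had a Spearman rho of 0.594, and 0.564 at the same number of peaks. The bins are neighbours on the same chromosomes and share mappability and base composition, so the values are descriptions. Against hnRNPU the rho was 0.206 for SAFB and 0.200 for SAFB2, and against UTP6 0.160 and 0.163. For comparison, hnRNPU and UTP6 had a rho of 0.745 with each other. Leaving out the 4 bins with at least 20 peaks gave 0.592.

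The bin counts were less alike once shared peaks were left out. A shared peak adds to the counts of both lists, mostly in the same bin, so a lower value follows in part from the definition. Counts of SAFB-only and SAFB2-only peaks had a rho of 0.215 over the same 2658 bins, and 0.157 at the same number of peaks. Of the 265 bins with most SAFB peaks, 119 (44.9%) were among the 265 with most SAFB2 peaks. These 265 bins of each list held 23.5% of SAFB and 27.3% of SAFB2 peaks. At the same number of peaks the SAFB value was 26.2%.

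**Figure D4:**
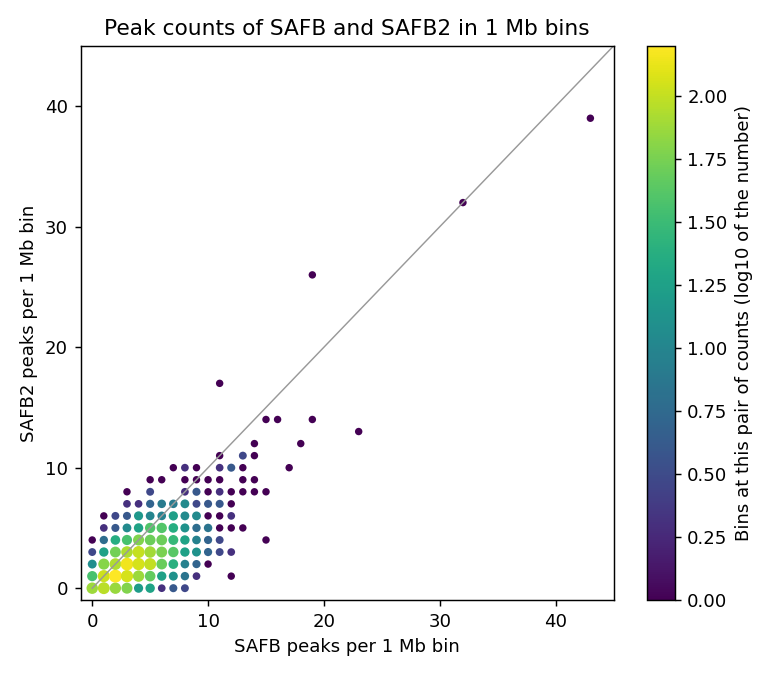
SAFB2 peaks against SAFB peaks per 1 Mb bin for 2658 bins; each point is a pair of counts, and its colour is the log10 of the number of bins there. The grey line marks equal counts, and the 2 points at the top right (43 and 39, 32 and 32) are neighbouring bins of chromosome 13.

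The densest bins were common to both lists. Chromosome 13 from 66 to 67 Mb held 43 SAFB and 39 SAFB2 peaks, and from 65 to 66 Mb 32 and 32. In the first, 19 of the SAFB and 20 of the SAFB2 peaks were shared, so unshared peaks of both kinds lay side by side there. Chromosome 4 from 146 to 147 Mb held 19 SAFB and 26 SAFB2 peaks. This bin had the largest excess of SAFB2, with 0.390% of its list against 0.179% of the SAFB list. Chromosome 14 from 4 to 5 Mb held 23 and 13, from 5 to 6 Mb 11 and 17, and chromosome 12 from 19 to 20 Mb held 19 and 14. The first bin of chromosome 13 was also the densest of the hnRNPU and UTP6 lists, with 39 and 82 peaks.

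The bins with the largest excess of SAFB were chosen for a high SAFB and a low SAFB2 share, so their counts are a description. Chromosome 16 from 16 to 17 Mb held 12 SAFB peaks and 1 SAFB2 peak, and chromosome 10 from 81 to 82 Mb held 15 and 4. Chromosome 13 from 80 to 81 Mb and chromosome 7 from 130 to 131 Mb and from 134 to 135 Mb each held 8 SAFB peaks and no SAFB2 peak. At the same number of peaks these 5 bins held 4, 11, 3, 5 and 5 SAFB peaks. In the full lists, 28 bins held at least 5 SAFB peaks and no SAFB2 peak, and none held at least 5 SAFB2 peaks without SAFB. SAFB2 was the shorter list, and the largest SAFB2 count without SAFB was 4. Outside the dense bins, the largest excess of SAFB2 was chromosome 14 from 43 to 44 Mb, with 8 SAFB2 and 3 SAFB peaks.

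The 7 other lists separated shared from unshared peaks differently for the 2 proteins. Of SAFB2-only peaks 51.6% (49.8 to 53.4%) met a UTP6 peak, against 35.2% (33.7 to 36.7%) of shared SAFB2 peaks. From the lowest to the highest score quartile the SAFB2-only values were 46.9, 53.3, 57.4 and 50.2%, and the shared values 37.9, 34.4, 34.4 and 35.0%. Without chromosome X they were 52.3 and 36.5%. SAFB2-only peaks were also higher for the PSPC1 knock-in lists, with 15.8 against 9.59% in replicate 1 and 22.3 against 12.7% in replicate 2. For overexpressed PSPC1 the values were 27.3 and 21.6%, and for UTP3 29.5 and 25.8%. For hnRNPU they were 17.5 and 18.2%, and for CIRH1A 19.7 and 20.5%, with intervals that overlapped.

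The size of the UTP6 difference followed the overlap rule. It was 16.4 percentage points as counted above, 6.08 with 500 bp windows and 3.55 with a reciprocal overlap of 50%. Under the reciprocal rule the differences for UTP3, overexpressed PSPC1 and PSPC1 knock-in replicate 1 changed sign.

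For SAFB, shared peaks were the higher ones for 3 lists by more than the intervals. Shared SAFB peaks met hnRNPU at 20.5% (19.2 to 21.8%) and SAFB-only peaks at 14.6% (13.8 to 15.4%). For CIRH1A the values were 22.0 and 15.9%, and for UTP3 30.1 and 22.6%, the only one of these 3 lists whose order differed from that of SAFB2. In the PSPC1 knock-in lists SAFB-only peaks were higher, as for SAFB2, with 12.3 against 10.4% in replicate 1 and 16.4 against 13.9% in replicate 2. Overexpressed PSPC1 was met by 24.1% of shared and 22.6% of SAFB-only peaks. UTP6 was met by 41.1% of shared and 42.1% of SAFB-only peaks, yet by more shared than SAFB-only peaks within each score quartile, such as 33.0 against 29.5% in the highest. Overall 3 of the 7 lists were met more often by SAFB-only peaks, and in the upper 3 score quartiles none was. For SAFB2, 5 of the 7 were met more often by SAFB2-only peaks, and 7, 7 and 5 in the upper 3 score quartiles. The SAFB result is for a list of wider peaks, and score, width and class move together in it.

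**Figure D5:**
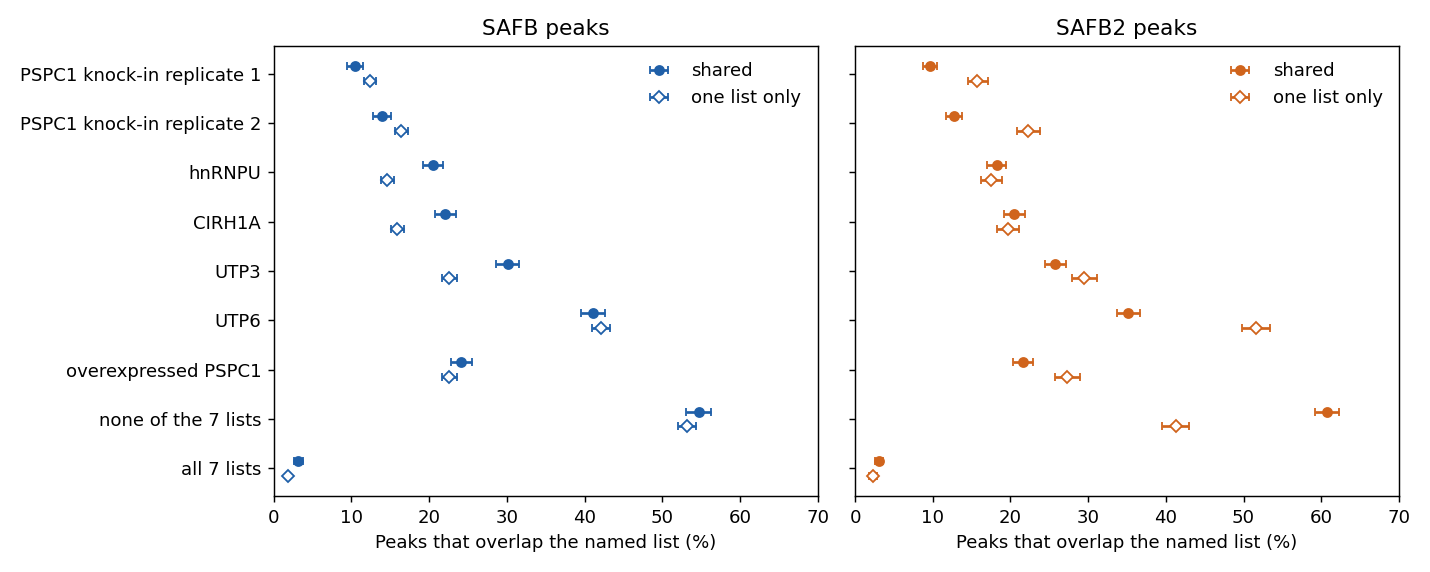
Share of SAFB peaks (left, blue) and SAFB2 peaks (right, orange) that overlap each of the 7 other lists, none of them or all of them, in percent with Wilson 95% intervals. Filled circles are peaks shared by SAFB and SAFB2 and open diamonds are unshared peaks; the widest gap is at UTP6 among SAFB2 peaks, 35.2 against 51.6%, apart from the peaks in none of the lists.

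A large set of peaks was seen with SAFB and SAFB2 and with none of the other 7 lists. Of shared SAFB2 peaks 60.7% (59.1 to 62.3%) met no other list, against 41.2% (39.5 to 43.0%) of SAFB2-only peaks. For SAFB the values were 54.7 and 53.2%. Counted from the other side, SAFB2 peaks in no other list were shared with SAFB at 64.9% (63.3 to 66.4%), those in 1 or 2 other lists at 38.5%, in 3 or 4 at 43.6% and in 5 to 7 at 56.8%. For SAFB the shares were 35.2, 28.5, 32.4 and 42.8%. Sharing was thus lowest for peaks met by 1 or 2 other lists. These peaks also had the lowest median score percentile of the groups, 42.4 for SAFB and 41.5 for SAFB2. Peaks in no other list had 55.2 and 52.1, and the part of score in this order was not tested. Among the 250 highest scores, 67 of 233 shared SAFB peaks (28.8%) were in 5 to 7 other lists. For shared SAFB2 peaks it was 102 of 241 (42.3%). Of the unshared peaks with such scores, 0 of 17 for SAFB and 1 of 9 for SAFB2 were. Among the 1000 highest scores the values were 15.9% of shared and 4.23% of SAFB-only peaks. For SAFB2 they were 22.6 and 18.8%. Over all scores, 1371 SAFB and 962 SAFB2 peaks were in 5 to 7 other lists, and 5713 and 3474 in none. Most of the strongest shared peaks were thus not in 5 to 7 lists, yet a larger part was than among the 1000 highest.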

How the data were processed

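Peak lists of 9 ChIP-seq libraries were read, 1 each for SAFB and SAFB2. Each deposited line holds a chromosome, start, end, name and score. For the deposited score no unit is stated, and it ranks peaks within a list. Start and end are positions as the authors deposited them, printed from 1 upward. The submitters' processing notes name mm9, CASAVA, Bowtie2 and TopHat, and the peak names carry the name MACS. Caller version, threshold and control library are not given in the sources used here. Each list belongs to 1 library, so peaks were not pooled.

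Overlaps, distances, clusters and bins (by peak midpoint) were computed with statsmodels 0.14.6, scipy 1.17.1, numpy 2.4.6, pandas 2.3.3 and matplotlib 3.10.9 under Python 3.11.15, and checked on simulated data. Chromosome length was the largest peak end over all lists. Regions were named by rank: the 5 best shared, 5 best unshared per list, 5 largest clusters and 5 densest or most different bins, of which the text gives some. The members, lists and rules were chosen with earlier results of these data known. Alternatives were other overlap rules, peak sets, cluster distances and bin sizes. No mm9 sequence, annotation or protein table was used here, so no sequence is printed, no peak is assigned to a gene, and the planned sequence and protein comparisons were not run.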

Additional observations from a re-analysis of the deposited data

How the results depend on the processing

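The share of shared peaks followed the overlap rule. It was 40.0% of SAFB2 and 25.1% of SAFB peaks with a reciprocal overlap of 50%, 39.3 and 24.7% with 500 bp windows, 58.7 and 37.3% with peaks within 1 kb, and 45.0 and 44.2% at the same number of peaks. In the highest score quartile it was 67.1% of SAFB2 and 43.9% of SAFB peaks with the reciprocal rule, 61.2 and 44.5% with windows, and 65.9% of SAFB peaks within 1 kb; in the highest decile it was 90.4 and 77.8%. The median width of shared minus unshared SAFB peaks was 119 bp (reciprocal), 45 bp (windows, with an interval that held 0), 473 bp (same number) and 401 bp (the 50% with the highest scores). For SAFB2 the values were 245 bp (reciprocal), 8 bp (windows, with an interval that held 0), 143 bp (within 1 kb) and 69 bp (highest 50%). The difference in median score percentile for SAFB was 26.5 (reciprocal), 27.7 (windows), 28.8 (same number) and 30.4 (highest 50%), and for SAFB2 23.6 (windows) and 28.8 (same number). The excess of chromosome X among shared over unshared peaks was 0.641 (reciprocal) and 1.04 (highest 50%) percentage points for SAFB, with intervals that held 0, and 1.39 (reciprocal) and 2.46 (windows) for SAFB2.

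SAFB-only peaks met 0 of 7 other lists more often than shared peaks did with the reciprocal rule, with windows and in the highest 50%, and SAFB2-only peaks 2 of 7 with the reciprocal rule. The difference, unshared minus shared, changed sign for SAFB with PSPC1 knock-in replicate 1 at -1.22 (reciprocal), -0.907 (windows) and -0.14 (highest 50%) percentage points. With replicate 2 it was -0.57, -0.573 and -0.128. For SAFB2 it changed sign under the reciprocal rule with PSPC1 knock-in replicate 1 (-0.0375), UTP3 (-2.25) and overexpressed PSPC1 (-1.45), and with windows for UTP3 (-0.745). The cause was not tested.

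Spacing and clusters followed the number of peaks. The median distance within a list was 112.3 kb for SAFB at the same number, and 138.4 kb for SAFB and 226.2 kb for SAFB2 in the highest 50%. Clusters held 8.01% of SAFB peaks at the same number and 5.74% of SAFB and 4.83% of SAFB2 peaks in the highest 50%. With neighbours joined up to the shortest distance they held 2.70 and 2.55%, up to 25 kb 6.40 and 4.72%, and up to 100 kb 34.1 and 21.0%. Within 10 kb of the other list lay 12.6% of SAFB2-only peaks at the same number, and in the highest 50% 6.47% of SAFB-only and 12.1% of SAFB2-only peaks. The rank correlation over bins was 0.537 with 500 kb bins, 0.770 with 5 Mb bins, 0.562 over bins with a SAFB or SAFB2 peak, 0.564 at the same number and 0.527 in the highest 50%.

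A further setting was chosen after seeing the data and left out the 1371 SAFB and 962 SAFB2 peaks that met at least 5 of the other 7 lists. The shares were then 54.5% of SAFB2 and 33.2% of SAFB peaks, the distances 131.5 and 74.8 kb, the cluster shares 6.99 and 13.2%, and the rank correlation 0.562. Of the 124 other values recomputed, 62 stayed within the interval of the reported value, and 10 are the sign changes given above. The other 52 moved outside the interval or changed sign from a value whose interval held 0, some of them still inside that interval. Among the 52 are 8 more changes of sign from values whose interval held 0: SAFB with UTP6, from 1.03 to between -3.47 and -0.0217 under 6 settings, and SAFB2 with hnRNPU (0.712) and CIRH1A (1.41) at the same number. Depth is unknown and 1 library per protein limits each value. No paired analysis was possible because no test was made and each protein has 1 library.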
